A study of Mus musculus with 6 samples.

Results

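Mitosis genes encode the kinases, cyclins, kinetochore proteins, motors and cytokinesis factors that divide the copied chromosomes between daughter cells. Cyclin A and cyclin B partner with CDK1 to drive mitotic entry, the spindle checkpoint holds anaphase back until chromosomes are attached, and the central spindle then guides the cleavage furrow. Transcripts of most of these genes are low in G1 and accumulate in G2, through the MuvB complexes and FOXM1, which act at CHR elements and, through NF-Y, at CCAAT boxes. Here 40 such genes, chosen by symbol in 7 role groups, were followed in messenger RNA from Ba/F3, an interleukin-3-dependent lymphoid line of the mouse. All 40 symbols were found among the 41255 genes listed.

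Cultures with either form of RPL10 were compared, each grown from a single cell, so that the replicates are clones. The 3 WT clones (28, 29 and 36) carried wild-type human RPL10 from a retroviral cDNA, and the 3 R98S clones (11, 13 and 35) carried the R98S form of that cDNA, in which serine replaces an arginine of this large-subunit ribosomal protein and which was found in T-cell leukemia. In all 6 clones the endogenous mouse Rpl10 was knocked down with a short hairpin RNA, and cycloheximide, which stalls ribosomes, was added shortly before lysis. No parental cells without a transgene are part of the comparison, and each clone gave 1 library.

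Between 21786776 and 24204991 reads were assigned to genes in each library. Values below are normalized read counts, that is reads divided by the size factor of the library, and differences are log2 fold changes of R98S minus WT on log2(normalized count + 1). A gene was called at an adjusted p under 0.1. Rpl10 is knocked down in both groups and its row does not check the labels. It held 2853, 3156 and 1900 normalized counts in WT and 3028, 1883 and 2617 in R98S. Among markers of the line, the interleukin-3 receptor subunits Csf2rb and Csf2rb2 held 39750 or more normalized counts in every clone, while Ebf1, a transcription factor of the B lineage, was at most 11.3. Csf2rb and Csf2rb2 were 1.44-fold and 1.54-fold higher in R98S (limma adjusted p = 0.0509 and 0.0178) and the B-cell receptor subunit Cd79b 2.22-fold higher (adjusted p = 0.0617). The other subunits listed for these receptors, Il3ra and Cd79a, were at 0.88-fold and 1.16-fold and not called (adjusted p = 0.432 and 0.449). The leukocyte antigen Ptprc was lower, at 4471 ± 1150 against 11220 ± 2640 (SD, n = 3 each, adjusted p = 0.00894). The 4 macrophage markers summed to 9210 to 12590 in WT and 774.1 to 3131 in R98S. Nearly all of that was Adgre1, listed under its older symbol Emr1, which was lower in R98S (log2 fold change -2.74, limma adjusted p = 0.00834). Cd68 held 82.6 to 249 normalized counts and was not called (adjusted p = 0.454). Csf1r and Marco were at most 6.48. The sums of 5 T cell markers (13.97 to 65.1 in WT, 47.0 to 92.9 in R98S), 4 erythroid markers (202 to 682.6 and 367.3 to 580.7) and 4 fibroblast markers (8.19 to 20.4 and 9.25 to 19.4) were below that of the macrophage markers. Most of the erythroid sum was Klf1, which was not called (adjusted p = 0.508). Cd3d was higher in R98S, at 63.79 ± 21.5 against 13.34 ± 4.44 (SD, limma adjusted p = 0.0112). Cd3e and Cd3g went the other way, with means of 0.308 and 1.27 in R98S against 2.06 and 16.4 in WT. Their counts were too low to be tested, and WT clone 36 held 43.03 of Cd3g. Cd4 and Cd8a were at most 5.55 in every clone. Hba-a1 was lower, at 2.35 ± 3.3 against 35.78 ± 30.7 (adjusted p = 0.0389). The part of these markers in the results below was not tested.

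WT clone 36 stood apart from WT clones 28 and 29 in the mitosis genes, and this touches each comparison below. All 40 members had their highest WT value in clone 36, against 36.4% of the 11550 tested genes. In 31 of 40 members clone 36 was also above all 3 R98S clones (77.5%, against 17.2% of tested genes). The median member was 1.34-fold higher in clone 36 than in the mean of clones 28 and 29, whereas the median tested gene was at 0.984-fold. Cenpf, a kinetochore protein of G2 cells, differed most at 2.29-fold, followed by the outer kinetochore subunit Ndc80 at 1.61-fold and the proliferation antigen Mki67 at 1.59-fold. Mad2l1 differed least at 1.13-fold. Clones 28 and 29 differed from each other by a median absolute log2 difference of 0.063 over the members and 0.127 over tested genes. Topoisomerase Top2a was the widest exception between those clones, at 23090 and 34130 normalized counts. In bulk RNA, fewer cells in mitosis and less mitotic RNA per cell cannot be told apart.

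**Figure D1:**
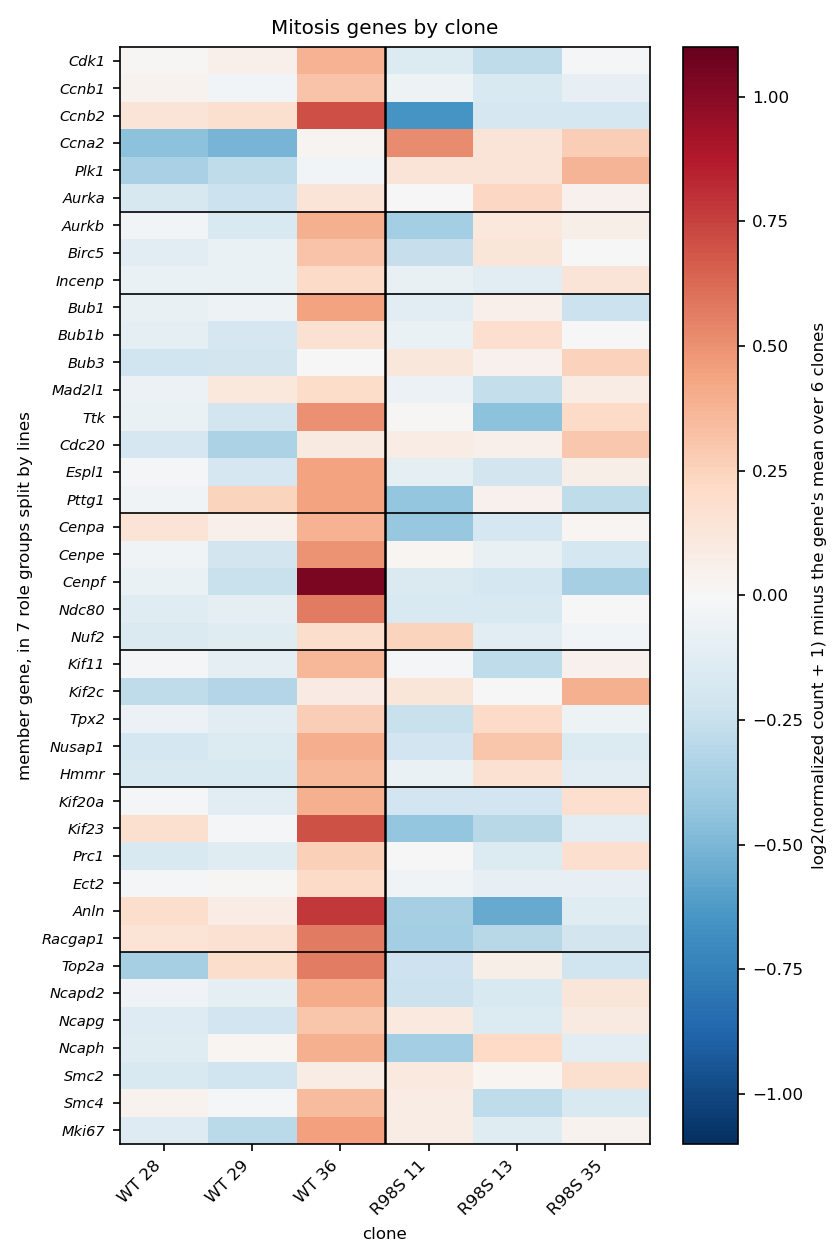
Each row is a member and each column a clone, and the colour gives log2(normalized count + 1) minus that gene's mean over the 6 clones, with lines between the 7 role groups. The WT 36 column is the highest WT column in 40 of 40 rows and the highest of all 6 in 31.

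The promoters are shown first because the members share letters there that their choice did not use. RefSeq windows on GRCm38.p6, from 250 bases before to 50 bases after the start, held 34 of the 40 members. Aurkb, Ccna2, Incenp, Kif20a, Smc4 and Tpx2 had none in that set. The CHR letters TTTGAA were searched on both strands, where the reverse reads TTCAAA. The NF-Y letters CCAAT were searched in the same way, with ATTGG as the reverse. No CHR match overlapped an NF-Y match in the members. With either set of letters in capitals, the stretches below run 5′ to 3′ on the strand of the gene. They cover 70 bases before the RefSeq start and 12 bases from it. They are 4 members called in R98S against WT and, for comparison, 4 that were not called. The first 4 are Ccnb2 (chr9:70421543-70421624, minus strand), Racgap1 (chr15:99651645-99651726, minus), Kif23 (chr9:61946788-61946869, minus) and Plk1 (chr7:122159365-122159446, plus). The others are Cdk1 (chr10:69352901-69352982, minus), Cdc20 (chr4:118437332-118437413, minus), Kif11 (chr19:37376312-37376393, plus) and Top2a (chr11:99024178-99024259, minus). Starts in the GENCODE annotation can differ from those of RefSeq. The stretches of Kif23 and Kif11 lie wholly before the GENCODE starts of these genes (61946774 and 37376403). In 27 of 37 member windows, bases after the RefSeq start lay in the first 400 of a GENCODE transcript.
Ccnb2: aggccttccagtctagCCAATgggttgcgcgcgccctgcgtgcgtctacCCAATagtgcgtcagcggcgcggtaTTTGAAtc
Racgap1: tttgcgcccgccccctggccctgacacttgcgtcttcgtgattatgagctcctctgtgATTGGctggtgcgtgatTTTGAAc
Kif23: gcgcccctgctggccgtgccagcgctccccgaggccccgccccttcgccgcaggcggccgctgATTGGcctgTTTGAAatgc
Plk1: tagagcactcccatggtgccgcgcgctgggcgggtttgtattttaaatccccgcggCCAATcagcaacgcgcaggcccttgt
Cdk1: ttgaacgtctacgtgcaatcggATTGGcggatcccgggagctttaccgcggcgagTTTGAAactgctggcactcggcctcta
Cdc20: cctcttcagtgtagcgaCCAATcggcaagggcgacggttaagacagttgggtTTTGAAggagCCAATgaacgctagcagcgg
Kif11: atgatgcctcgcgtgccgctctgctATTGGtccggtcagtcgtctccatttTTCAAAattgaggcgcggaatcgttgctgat
Top2a: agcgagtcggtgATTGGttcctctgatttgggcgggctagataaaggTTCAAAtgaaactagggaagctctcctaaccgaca

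In the 250 bases before the start, 14 of 34 members (41.2%) held TTTGAA, against 18.4% of the 27025 genes with a window, each gene counted once. CCAAT was found in 25 members (73.5%, against 37.8%), and both in 13 (38.2%, against 6.57%). The TTTGAA matches lay close to the RefSeq start and often just after it, although the GENCODE start differs for some members. Within 50 bases either side, a span taken after the positions were seen, 22 members (64.7%) held TTTGAA, against 5.72% of genes. In Plk1 the letters began at base 31 from the RefSeq start, past the stretch shown, and in Anln they began at bases 22 and 29. Both sets of letters stood in the windows of called and uncalled members alike, and in those of Ccnb2, which fell, and Plk1, which rose. The window of Anln, also called, held TTTGAA but no CCAAT match. A match is a description of sequence and not of a bound site.

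**Figure D2:**
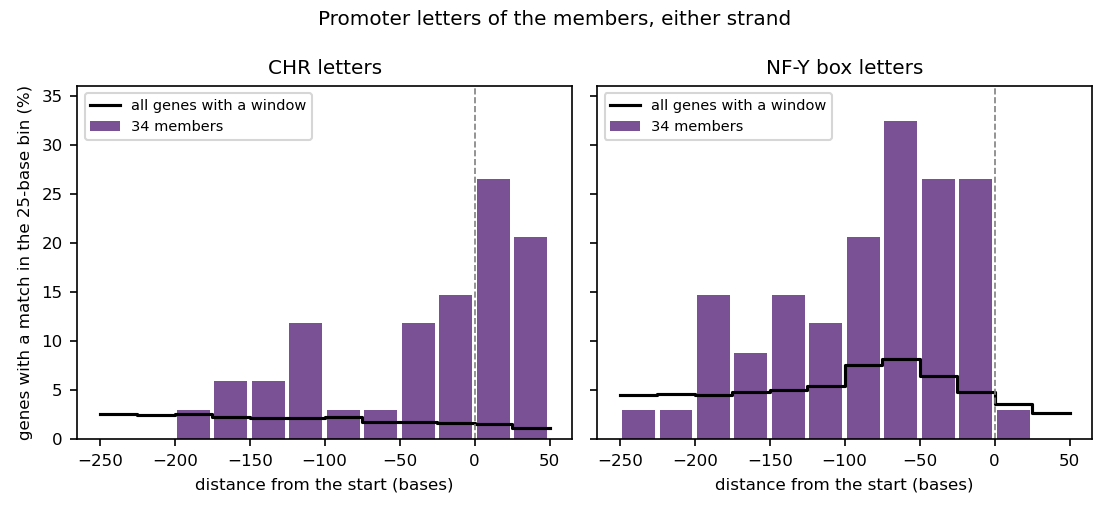
Bars give the percentage of the 34 members with a match in each bin of 25 bases along the window and the line gives the same for all 27025 genes, with 0 at the RefSeq start. CHR letters (TTTGAA, left) reached 26.5% of members in the first 25 bases from that start against 1.54% of genes. The letters of the NF-Y box (CCAAT, right) reached 32.4% between 75 and 50 bases before the start against 8.21%.

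Of the 40 members, 6 were called between R98S and WT clones (15%), which is below the 23.9% of 11550 tested genes called in either direction. Cyclin A2 (Ccna2) and the mitotic kinase Plk1 rose, which is 2 of 40 members beside 10.7% of tested genes. Cyclin B2 (Ccnb2) fell, as did 3 cytokinesis genes, Kif23, Anln and Racgap1, which makes 4 of 40 members beside 13.1% of tested genes. The median log2 fold change was -0.16 over the members and -0.01 over tested genes, with 11 members above 0 and 29 below. In 11 members the 3 WT and the 3 R98S values did not overlap (3 higher and 8 lower in R98S), beside 37.3% of tested genes.

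These counts depended on single clones, as did those over all genes. Leaving out R98S clone 11 gave 2 members (beside 13.7% of tested genes), R98S clone 13 gave 7 (27.9%) and R98S clone 35 gave 5 (17.4%). Leaving out WT clone 28 gave 3 members (11.5%) and WT clone 29 gave 4 (12.6%). Without WT clone 36, 8 members were called (20%, beside 21.8% of 11548 tested genes). The spindle checkpoint protein Bub3, the anaphase activator Cdc20 and the kinesin Kif2c then rose with Ccna2 and Plk1, and Ccnb2, Anln and Racgap1 fell, while Kif23 was no longer called (log2 fold change -0.36, limma adjusted p = 0.123). The median over the members was then 0.03, with 22 above 0 and 18 below, so that its sign rested on that clone. The quasi-likelihood test of edgeR on the recovered reads called the same 6 members (23.8% of tested genes). DESeq2 called 9, adding Bub3 as higher and Pttg1 and Cenpa as lower (26.9% of the 11528 genes with an adjusted p).

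**Figure D3:**
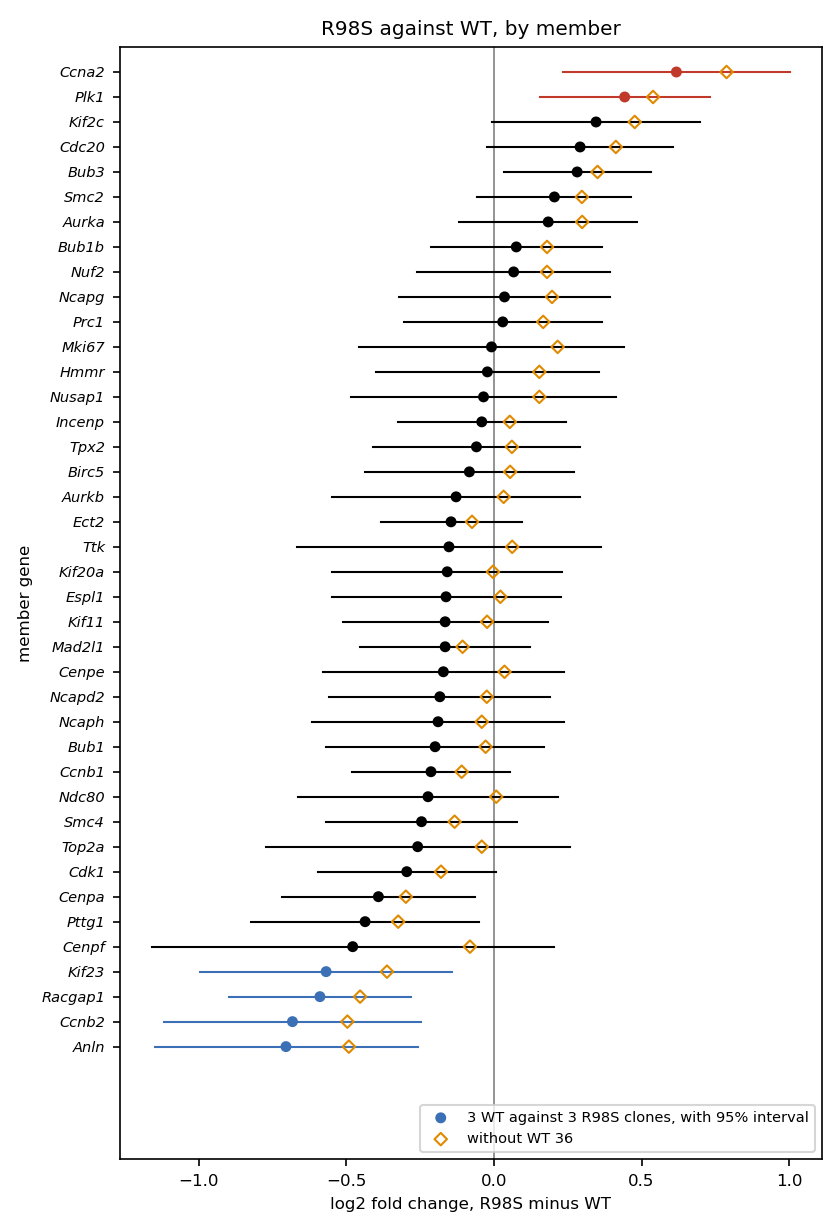
Filled points give the log2 fold change of each member, R98S minus WT, with 95% intervals from limma, in red or blue where called higher or lower. Open diamonds leave out WT 36 and lie to the right of the filled points for all 40 members, with Ccna2 and Plk1 highest and Anln, Ccnb2 and Racgap1 lowest in both fits.

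Among the kinases and cyclins of mitotic entry, cyclin A2 and cyclin B2 moved in opposite directions. Ccna2 (chromosome 3, 36564865 to 36572150, minus strand, GRCm38) encodes the cyclin that serves S phase and the approach to mitosis. In the WT group it measured 5364, 5145 and 7492 normalized counts (clones 28, 29 and 36, the order used throughout), and the R98S group gave 10500, 8069 and 8814 (clones 11, 13 and 35). Every R98S clone was above every WT clone, with means of 9129 ± 1250 and 6000 ± 1300 (SD, n = 3 each). The log2 fold change was 0.62 (SE 0.17, limma adjusted p = 0.044). The call was lost without WT clone 28, WT clone 29 or R98S clone 11 (log2 fold changes of 0.55, 0.52 and 0.51, adjusted p = 0.146, 0.138 and 0.137).

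The genes beside Ccna2 also differed between the groups. Bbs7, a cilium gene on the same strand whose end lies 991 bases upstream of Ccna2, held 2.05, 2.15 and 6.01 normalized counts in WT and 8158, 5909 and 6098 in R98S (limma adjusted p = 4.25e-06). Exosc9, an exosome subunit on the opposite strand that shares 510 exon bases with Ccna2, rose by 0.48 log2 (adjusted p = 0.0629). The libraries were made with a stranded kit, but it is not given whether reads were counted by strand. Reads in the shared bases therefore cannot be assigned, and the part of these neighbours in the Ccna2 value was not tested. With the median of the 30 nearest tested genes removed in each library, Ccna2 fell from 0.62 to 0.48 log2 and remained called (limma adjusted p = 0.0727). A median over 30 genes does not carry the change of any single neighbour, so that fit did not test Bbs7 or Exosc9.

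Ccnb2 (chromosome 9, 70407692 to 70421547, minus strand) encodes a B-type cyclin that activates CDK1. Its normalized counts were 3895, 3992 and 5798 in WT and 2263, 3112 and 3101 in R98S. The groups did not overlap, and R98S clone 11, the highest for Ccna2, was the lowest for Ccnb2. Means were 4562 ± 1070 and 2825 ± 487, and Ccnb2 fell by 0.68 on the log2 scale (SE 0.19, limma adjusted p = 0.0468). Without R98S clone 11 it was at -0.53 and not called (adjusted p = 0.138). The neighbouring Myo1e and Rnf111 were also lower, with log2 fold changes of -0.72 and -0.35 (adjusted p = 0.0276 and 0.0858).

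A ratio between genes within a clone does not depend on the scaling of libraries or on a shift that all mitosis genes share. The ratio of Ccna2 to Ccnb2 normalized counts, chosen after the values were seen, was 1.38, 1.29 and 1.29 in WT and 4.64, 2.59 and 2.84 in R98S. WT clone 36 thus lay with the other WT clones in this ratio. Since Ccna2 and Ccnb2 did not overlap between the groups in opposite directions, the separation of this ratio is fixed by the choice of the pair and was not tested.

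Plk1 (chromosome 7, 122159439 to 122169873, plus strand), the kinase of centrosome maturation and mitotic entry, measured 1745, 1833 and 2184 in WT and 2466, 2464 and 2892 in R98S. All R98S clones exceeded all WT clones, and the log2 fold change was 0.44 (SE 0.13, limma adjusted p = 0.0497). It was not called without WT clone 28, WT clone 29 or R98S clone 35 (adjusted p = 0.182, 0.151 and 0.13). The median log2 fold change of the 30 tested genes nearest to Plk1 was 0.38, and with that shift removed the value fell to 0.07 and was not called (adjusted p = 0.708). A predicted transcript, Gm44985, shares 156 exon bases with Plk1 on the opposite strand.

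The other entry genes were not called. Cdk1, the mitotic kinase itself, measured 3839, 3956 and 4964 in WT and 3437, 3138 and 3780 in R98S. The groups were separate but close, with a log2 fold change of -0.30 (95% interval -0.60 to 0.01, adjusted p = 0.165). Ccnb1, the main B-type cyclin, measured 3424, 3273 and 4151 in WT and 3218, 2969 and 3130 in R98S (log2 fold change -0.21, interval -0.48 to 0.06). Processed pseudogenes of Ccnb1 match it over up to 1294 bases at up to 99.2% identity, and shorter stretches of Mad2l1 and Mki67 (454 and 216 bases) have such copies, so that reads there are uncertain. For the spindle kinase Aurka the groups overlapped (0.18, adjusted p = 0.375).

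**Figure D4:**
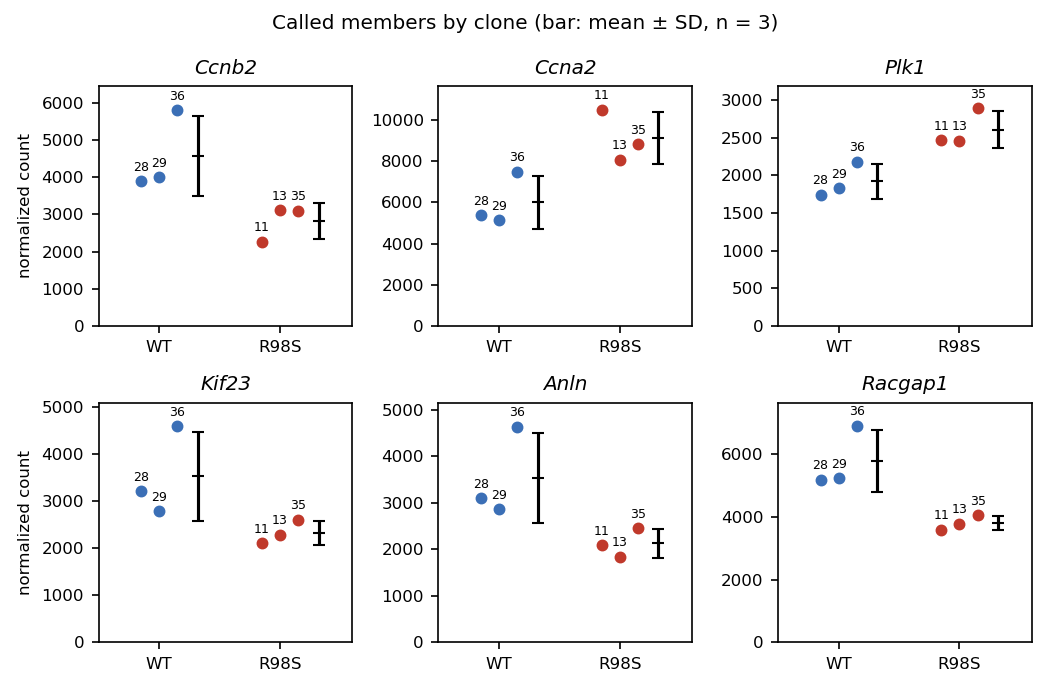
Points are the normalized counts of single clones, numbered, for the 6 called members, and bars give the mean ± SD of 3 clones. In all 6 panels the WT and R98S points do not overlap, and WT 36 is the highest WT point.

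The central spindle and cytokinesis genes held the other 3 calls, all lower. Racgap1 (chromosome 15, 99620496 to 99651656, minus strand) and the kinesin Kif23 (chromosome 9, 61915905 to 61946774, minus strand) form centralspindlin, the complex that bundles midzone microtubules. Racgap1 measured 5174, 5221 and 6902 in WT and 3586, 3781 and 4039 in R98S. The R98S clones lay within a narrow band below all WT clones, and Racgap1 fell by 0.59 log2 (SE 0.13, limma adjusted p = 0.0253), the lowest adjusted p of the members. It stayed called whichever clone was left out. Kif23 measured 3207, 2782 and 4591 in WT and 2105, 2287 and 2608 in R98S. The gap between the groups was 2608 against 2782, and Kif23 fell by 0.57 log2 (SE 0.19, adjusted p = 0.075). This call was lost without any of the clones except WT clone 29, and the log2 fold change ranged from -0.65 (without R98S clone 35) to -0.36 (without WT clone 36) among the fits that lost it.

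Anln (chromosome 9, 22332012 to 22389188, minus strand) encodes anillin, a scaffold of the contractile ring. It measured 3096, 2863 and 4638 in WT and 2096, 1843 and 2461 in R98S. Here too each R98S clone was below each WT clone, and Anln fell by 0.70 log2 (SE 0.19, adjusted p = 0.0461), a call lost without R98S clone 11 (-0.70, adjusted p = 0.126). Its tested neighbours Rp9 and Gm10182 had log2 fold changes of -0.44 and -0.30 (adjusted p = 0.0412 and 0.0916).

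The remaining cytokinesis genes were not called. Ect2, the RhoA exchange factor that Racgap1 recruits, had log2 fold change -0.14 with groups that did not overlap (adjusted p = 0.377). Kif20a was at -0.16 and Prc1, the microtubule bundler, at 0.03. Prc1 shares 911 exon bases with Rccd1 on the opposite strand, which rose by 0.91 (adjusted p = 0.00902), and Kif20a shares 1271 with Cdc23. The ratio of Plk1 to Racgap1, also chosen after the values were seen, was 0.335 ± 0.0175 in WT and 0.685 ± 0.0323 in R98S (SD, n = 3 each), a separation that the choice of the pair likewise fixed.

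The 3 chromosomal passenger genes were not called by limma, edgeR or DESeq2, with 0 at an unadjusted p under 0.05 and log2 fold changes from -0.13 to -0.04. Aurkb, the kinase that corrects faulty attachments, measured 2070, 1889 and 2768 in WT and 1632, 2297 and 2210 in R98S. These values overlapped, and the log2 fold change of -0.13 (95% interval -0.55 to 0.29) changed sign to 0.03 without WT clone 36 or without R98S clone 11. Birc5 and Incenp were at -0.08 and -0.04 and were at 0.06 and 0.05 without WT clone 36.

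No call was made by limma or edgeR among the 8 genes of the spindle checkpoint and anaphase onset, of which Bub3 and Pttg1 had an unadjusted p under 0.05 and were called by DESeq2. Bub1b, the checkpoint protein BubR1, measured 3864, 3640 and 4656 in WT and 3938, 4708 and 4140 in R98S (log2 fold change 0.08, interval -0.21 to 0.37). Mad2l1, which encodes the checkpoint protein MAD2, measured 2979, 3385 and 3590 in WT and 2982, 2606 and 3303 in R98S (-0.16, interval -0.45 to 0.12). Both sets of values overlapped. Cdc20, the target that MAD2 holds and the activator of the anaphase-promoting complex, measured 3018, 2684 and 3659 in WT and 3623, 3565 and 4210 in R98S. Its log2 fold change was 0.29 (adjusted p = 0.186) and 0.41 without WT clone 36 (adjusted p = 0.0733). Neighbours of Cdc20 had a median of 0.36, and the value was -0.07 after that was removed.

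Bub3 was higher in each R98S clone than in each WT clone (0.28, adjusted p = 0.117). Pttg1, which encodes securin, had a log2 fold change of -0.44 (adjusted p = 0.118), the lowest of this group. Bub1, Ttk and Espl1, the gene of separase, lay between -0.20 and -0.15.

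The 5 centromere and kinetochore genes were not called by limma or edgeR, with a median of -0.22. Cenpa, the histone variant that marks the centromere, measured 3211, 2997 and 3762 in WT and 2165, 2531 and 2930 in R98S. The groups did not overlap, and its log2 fold change of -0.39 (SE 0.14) missed the threshold (adjusted p = 0.101) and was the 1 call of DESeq2 in this group. Cenpf had the widest WT spread, 4154, 3681 and 8938, beside 3910, 3823 and 3381 in R98S. Its log2 fold change was -0.48 and its interval ran from -1.16 to 0.20. Cenpe and Ndc80 were at -0.17 and -0.22 (0.04 and 0.01 without WT clone 36), and Nuf2, the partner of Ndc80, at 0.07.

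The 5 spindle motors and microtubule proteins were not called by limma, edgeR or DESeq2, with 0 at an unadjusted p under 0.05. Kif11, the motor that pushes the spindle poles apart, measured 7828, 7329 and 10180 in WT and 7825, 6502 and 8147 in R98S (-0.16, interval -0.51 to 0.18). The microtubule depolymerase Kif2c was highest of the group at 0.35 (adjusted p = 0.165). Tpx2, Nusap1 and Hmmr were at -0.06, -0.04 and -0.02 with WT clone 36 and at 0.06, 0.15 and 0.15 without it.

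Chromosome structure genes had a median of -0.18 and no call among 7 by limma, edgeR or DESeq2, with 0 at an unadjusted p under 0.05. Top2a, which untangles sister chromatids, measured 23090, 34130 and 44030 in WT and 25430, 31210 and 25580 in R98S (-0.26, interval -0.77 to 0.26). Mki67, which coats mitotic chromosomes, measured 29590, 26530 and 44620 in WT and 34620, 29700 and 33530 in R98S. Its log2 fold change was -0.01 (interval -0.46 to 0.44), and it turned to 0.01 and 0.03 under scaling to the same total or upper quartile and to 0.22 without WT clone 36. The condensin subunits lay from Smc4 at -0.24 to Smc2 at 0.20. Ncapg, at 0.04, shares 944 exon bases with Lcorl on the opposite strand, which fell by 0.65 (adjusted p = 0.0145).

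Per kilobase of exon, Top2a and Mki67 were the most abundant members, at 3390 ± 862 and 3290 ± 632 normalized counts per kilobase (SD over 6 clones), a difference within their spread. Ccnb2 followed at 2410 ± 789. Ndc80 was lowest at 206 ± 47.1, below Espl1 at 278 ± 50.5. Each member had at least 994 reads in each clone, so the spread between clones and not the read number set the precision.

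A wider list of 148 other mitosis genes was read beside the members. Of its 145 tested genes, 5 rose and 12 fell (11.7%, beside the 23.9% of all tested genes), with a median of -0.06. The total was 5 without WT clone 28 (3 higher, 2 lower) and 8 without WT clone 29 (3 higher, 5 lower). It was 9 without R98S clone 11 (4 higher, 5 lower). Without WT clone 36, 9 rose and 7 fell (beside 21.8% of tested genes called in either direction). The mostly lower split thus rested on single clones, with WT clones 28 and 36 among them. Ska1, which couples kinetochores to microtubules, rose most (0.91, adjusted p = 0.0261), then the CDK1 inhibitor kinase Wee1 (0.79, adjusted p = 0.0254) and the cohesin deacetylase Hdac8 (0.51, adjusted p = 0.0294). The transcription factor E2f2 fell most (log2 fold change -1.22, adjusted p = 0.0148), then the septin Sept9 (-0.80, adjusted p = 0.0968, a call also lost in 5 of the 6 fits that leave out a clone, with R98S clone 13 the exception, and in edgeR, adjusted p = 0.159) and the cohesin subunit Rad21 (-0.70, adjusted p = 0.0131). Hdac8 was not called without WT clone 28 (adjusted p = 0.111). Of the 14 genes grouped in that list under cytokinesis and abscission, 3 fell (beside 13.1% of tested genes). These were Sept9, Kif13a (adjusted p = 0.0269) and Cdca3 (adjusted p = 0.0989, close to the threshold). Of the same 14, 12 had a log2 fold change below 0 (beside 50.9% of tested genes). Whether cytokinesis genes differ as a group was not tested.

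Among the regulators of mitotic transcription, Foxm1 measured 1853, 1682 and 2432 in WT and 1419, 1237 and 1627 in R98S. It fell by 0.47 (SE 0.17, adjusted p = 0.0936), and WT clone 36 was its highest clone. The call was lost without WT clone 28, WT clone 36, R98S clone 11 or R98S clone 13 (adjusted p = 0.175, 0.197, 0.198 and 0.184), and with its neighbours' shift removed the log2 fold change was -0.07. Mybl2, which works with the MuvB core, and Lin9, a subunit of that core, had log2 fold changes of 0.22 and 0.17 (adjusted p = 0.417 and 0.592).

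Genes of the G1/S transition were read beside the members, with the difference between the lists described and not tested. WT clone 36 was again the highest WT clone for all 20 of them, by a median of 1.23-fold over clones 28 and 29. The R98S clones 11, 13 and 35 were likewise above clones 28 and 29 in these genes, at median ratios of 1.25, 1.23 and 1.27, whereas for the mitosis members they were at 0.986, 1.01 and 1.07. Of the 20, 5 rose (25%, beside 10.7% of tested genes) with a median of 0.21. None fell by limma or edgeR, and 1 fell by DESeq2 or at an unadjusted p under 0.05. At that unadjusted p the lower gene was Rrm2 (log2 fold change -0.53, limma adjusted p = 0.114), whose groups did not overlap. The 3 highest were cyclin E2 (Ccne2, 0.76, adjusted p = 0.0968), the uracil glycosylase Ung (0.60, adjusted p = 0.0449) and the replication factor Gins1 (0.56, adjusted p = 0.0651), and Mcm6 and Mcm3 made up the 5. Leaving out WT clone 36 gave 9 calls, all higher, whereas leaving out WT clone 28 gave 0, R98S clone 11 gave 1 higher and R98S clone 35 gave 2 higher. Leaving out WT clone 29 gave 0 higher and 1 lower.

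**Figure D5:**
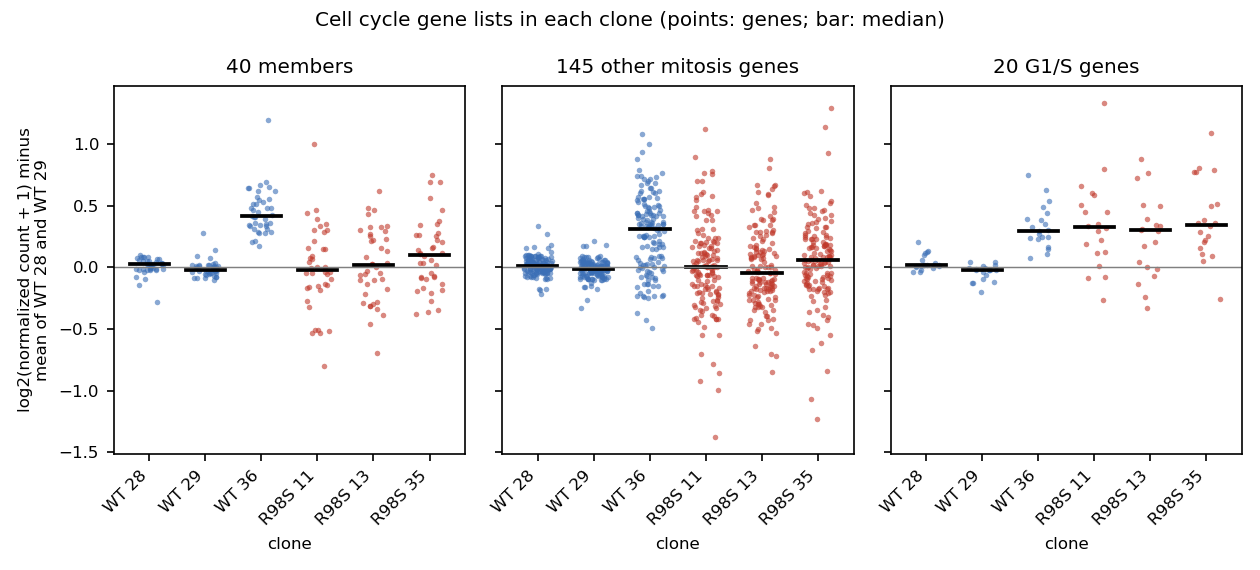
Points are genes and black bars medians, given per clone as log2(normalized count + 1) minus the mean of WT 28 and WT 29. WT 36 lies above 0 for all 40 members (median 0.42) and all 20 G1/S genes (median 0.30), and the R98S medians are near 0 for the members and between 0.30 and 0.34 for the G1/S genes.

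The R98S clones also differed from one another by the chromosome a member lies on. Of the members, 6 lie on chromosome 2 (Aurka, Bub1, Bub1b, Tpx2, Nusap1 and Ncaph) and 5 on chromosome 11 (Aurkb, Birc5, Pttg1, Hmmr and Top2a). In all 11 of them R98S clone 13 was the highest R98S clone, against 1 of the other 29 members. For Bub1b, for example, clone 13 held 4708 normalized counts and clones 11 and 35 held 3938 and 4140. The same ordering was found for 76.8% of the 1843 tested genes on these chromosomes and 29.7% of the 9178 elsewhere. The median tested gene in clone 13 was 0.27 log2 above the WT mean on chromosome 2 and 0.28 on chromosome 11, while clones 11 and 35 lay between -0.06 and 0.03 there. These chromosomes were picked after the values were seen.

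Genes near a member moved with it in other regions too. Across the 40 members, the log2 fold change of a member and the median of its 30 nearest tested genes had a Pearson r of 0.60 and a Spearman rho of 0.62. This is a description across genes, which share the same 6 libraries and, where members are close together, the same neighbours. In 6 members the neighbours had medians above 0.3, namely Cdc20, Smc2 and Kif2c on chromosome 4 and Plk1, Bub3 and Mki67 on chromosome 7. Smc4 on chromosome 3 had the lowest neighbour median, at -0.376, and moved from -0.245 to 0.130 with that shift removed. Plk1, Bub3, Cdc20 and Kif2c are 4 of the 5 members that rose in the fit without WT clone 36, and the fifth, Ccna2, had neighbours at 0.14. With the neighbours' shift removed, Bub3, Cdc20 and Kif2c were at -0.15, -0.07 and -0.09. Neighbours of the lower members Ccnb2, Kif23, Anln and Racgap1 were at -0.06, -0.09, -0.04 and -0.12, and these 4 stayed called (25.3% of the 11007 genes in that fit were). What moved whole regions was not tested.

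Scaled instead so that the median member had the same level in each library, an alternative chosen after the data were seen, 1 member was called, Ccna2 as higher. In that scaling 11.1% of tested genes were called, the median of all tested genes moved from -0.01 to 0.12, and 59.5% of the calls were higher in R98S, against 45% under the deposited size factors. Plk1 was at 0.57 and Ccnb2, Anln, Racgap1 and Kif23 at -0.56, -0.58, -0.46 and -0.44, so that these calls were lost while the fold changes stayed in the same direction.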

How the data were processed

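Per gene and library, the deposited signal was made as follows. The authors removed ribosomal and transfer RNA reads with Bowtie2, aligned the rest to mm10 with TopHat, kept primary alignments above a mapping quality limit, which can lower genes with near-identical copies, counted reads on exons and divided them by DESeq2 size factors. The submitters' processing notes name HTSeq as a tool. The library kit was stranded, but the gene annotation and the strand setting of the counting are not given in the sources used here. Values were whole multiples of 1 step in each library, for 100% of values (within 1e-06), which gave the reads back. The step of WT clone 36 (1.0008) is too near 1 to be told from whole numbers by the step alone, so the count tests assume it.

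Genes with a mean of at least 10 were tested with limma 3.58.1 (R 4.3.3, intensity trend, two-sided) on log2(normalized count + 1), adjusted by Benjamini-Hochberg over all 11550. Fold changes on this scale understate changes of low genes. Alternatives were edgeR 4.0.16, DESeq2 1.42.0, pseudocounts, filters, scalings, each clone left out and removal of the shift of the 30 nearest genes. Scripts were tested on simulated data.

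Members and lists were chosen with earlier results of these data known. Values by clone are given for called members and Cdk1, Ccnb1, Plk1, Aurkb, Bub1b, Mad2l1, Cdc20, Cenpa, Kif11, Top2a and Mki67. From the wider and G1/S lists the 3 highest and 3 lowest called genes with a mean of at least 100 are named, with Foxm1, Mybl2 and Lin9. Other genes were chosen after their values were seen. Positions are from GENCODE on GRCm38, and near-identical copies were sought by aligning the members' transcripts to its transcripts with BLAST. A marker of the line is not reported here.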

Additional observations from a re-analysis of the deposited data

How the results depend on the processing

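Over the fits that leave out 1 clone, the members called ranged from 2 to 8 (higher from 0 to 5, lower from 1 to 4) and their median log2 fold change from -0.23 to 0.03. The wider mitosis list called ranged from 5 to 19 (higher 3 to 9, lower 2 to 13) and the G1/S list called from 0 to 9 (higher 0 to 9, lower 0 to 1). With the members' median equalised, 1 member was called (1 higher, 0 lower), and 3 genes of the wider list (2 higher, 1 lower). With the shift of neighbours removed, 1 member was higher and 7 were lower, and 1 G1/S gene was lower, as with DESeq2. Without an expression filter or at an adjusted p under 0.05, the wider list had 10 calls (6 lower) in either case, and the G1/S list had 3 and 2, all higher. The cause was not tested.

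Over 53 named genes and 18 alternatives, 820 of 954 values kept direction and side of the threshold, 63 lost a call, 14 gained one and 57 changed sign. All sign changes were in genes that were not called. Without the neighbours' shift they were Bub1b (-0.005), Bub3 (-0.148), Cdc20 (-0.065), Cenpe (0.032), Espl1 (0.044), Incenp (0.030), Kif20a (0.030), Kif2c (-0.086), Nuf2 (-0.059), Prc1 (-0.250), Rpl10 (0.039), Smc2 (-0.183) and Smc4 (0.130). With the members' median equalised they were Birc5 (0.044), Hmmr (0.105), Incenp (0.086), Mki67 (0.119), Nusap1 (0.092), Rpl10 (0.061) and Tpx2 (0.068). Scaling to the same total turned Mki67 (0.013), and the same upper quartile turned Hmmr (0.020), Incenp (0.001), Mki67 (0.034) and Nusap1 (0.007). Leaving out single clones gave ranges across 0 for Aurkb (-0.242 to 0.033), Birc5 (-0.170 to 0.055), Incenp (-0.123 to 0.054), Ttk (-0.296 to 0.062), Espl1 (-0.296 to 0.022), Cenpe (-0.314 to 0.036), Ndc80 (-0.344 to 0.008), Nuf2 (-0.040 to 0.180), Tpx2 (-0.178 to 0.061), Nusap1 (-0.197 to 0.154), Hmmr (-0.112 to 0.154), Prc1 (-0.057 to 0.167), Ncapg (-0.062 to 0.197), Mki67 (-0.159 to 0.216) and Rpl10 (-0.285 to 0.127).

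Over all alternatives the adjusted p ranged from 0.00139 to 0.187 for Racgap1, 0.00612 to 0.138 for Ccnb2, 0.0051 to 0.126 for Anln, 0.00698 to 0.146 for Ccna2, 0.0217 to 0.22 for Kif23 and 0.0151 to 0.708 for Plk1. With 3 clones a group, the spread between clones limited what could be called. No paired analysis was possible because the WT and R98S clones carry different numbers.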
